A study of Mus musculus with 18 samples.

Results

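The 10 genes described here encode the bactericidal secretions of the Paneth cell. They are Lyz1, Ang4, the α-defensin genes Defa2, Defa5, Defa17, Defa22, Defa23, Defa24 and Defa30, and AY761184, which is counted here with the defensins as an 8th gene of that family. They were chosen by name, as known Paneth cell products, but with earlier results of these data known. They are 10 of the 55414 rows of the deposited expression table. RNA was sequenced from 18 libraries of mouse small intestinal organoids, epithelial cultures grown in a gel, in 6 groups of 3. All groups came from C57BL/6J wild-type mice, all cultures were harvested on day 6, and ages were not given in the sources used here. MG_Control and MG_5FU were crypts in Matrigel, a basement membrane extract, under ENR medium, which contains EGF, Noggin and R-spondin 1. COL_Control and COL_5FU were crypts in collagen type I under ENRW medium. The groups with 5FU in their name received 40 µM 5-fluorouracil (5-FU), a pyrimidine analog that blocks DNA synthesis, from day 4, and their controls received none. COL_cWRNE were untreated crypts in collagen under 25% cWRNE medium. VIL were villi scraped from the 3 cm of intestine beyond the pylorus and grown in collagen under that same medium. The series text calls the replicates of the 4 groups of the 5-FU experiment biological, and does not say whether a replicate was a mouse or a culture. The gel and the medium change together between the Matrigel and the ENRW collagen cultures, so their parts in a difference cannot be told apart. The recipes of ENRW and cWRNE are not given in the sources used here.

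Paneth cells sit at the base of small intestinal crypts beside the stem cells and store antimicrobial proteins in large secretory granules. Mouse α-defensins, also called cryptdins, are short cationic peptides that damage bacterial membranes. They are made as precursors that matrilysin, the product of Mmp7, cuts to the active form. Lyz1 encodes the lysozyme of Paneth granules, which breaks bacterial peptidoglycan, while its neighbour Lyz2 encodes the lysozyme of macrophages and other myeloid cells. Ang4 encodes a secreted protein of the ribonuclease A superfamily that kills bacteria. Paneth cells do not divide, and Wnt signalling promotes their maturation.

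The libraries held 22.3 M to 34.5 M estimated counts each, and all 10 genes passed the filter on low counts in every comparison. The 6 epithelial marker genes (Epcam, Vil1, Cdx2, Cdh1, Krt8 and Krt18) summed to between 6465 and 19210 CPM (counts scaled to a common library size) over the 18 libraries, and none was missing from any group. The 3 VIL libraries stood apart in 2 ways. Their macrophage and immune marker genes, 7 in all, summed to 170.7, 535 and 825.7 CPM, against at most 68.01 CPM in the other 15 libraries. Their 6 mesenchymal marker genes summed to 38.15, 471.1 and 469.2 CPM, against at most 13.54 CPM elsewhere. They also differed widely from each other: the coefficient of variation of the 10 genes ran from 76.4% to 105% in VIL and did not exceed 38.2% in the other groups. Results that rest on VIL are therefore given with and without single VIL libraries.

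The coding sequences of the defensins show why their levels must be read with care. The last 105 coding bases, which carry most of the active peptide and end in the stop codon, are shown for 7 of the 8 genes because the counts of near-identical stretches may be split between genes. Capitals mark the bases that differ from Defa24 in the first set and from Defa22 in the second. They were read from GENCODE M21 transcripts, and each gene lies on chromosome 8.
Defa24: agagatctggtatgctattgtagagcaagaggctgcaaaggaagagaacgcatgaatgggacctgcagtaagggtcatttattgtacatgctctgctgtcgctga
Defa30: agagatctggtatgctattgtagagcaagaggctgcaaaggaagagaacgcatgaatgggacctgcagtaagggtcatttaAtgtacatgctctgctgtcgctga
Defa23: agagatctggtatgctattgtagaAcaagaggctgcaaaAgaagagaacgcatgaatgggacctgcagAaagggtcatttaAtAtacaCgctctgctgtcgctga
Defa17: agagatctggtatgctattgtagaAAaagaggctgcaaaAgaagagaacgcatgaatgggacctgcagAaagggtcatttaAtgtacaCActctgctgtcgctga
Defa5: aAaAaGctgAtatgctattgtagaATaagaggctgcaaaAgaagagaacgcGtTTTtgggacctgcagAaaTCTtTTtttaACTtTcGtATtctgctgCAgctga
Defa22: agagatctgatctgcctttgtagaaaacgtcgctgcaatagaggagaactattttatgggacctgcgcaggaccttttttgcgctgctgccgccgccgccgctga
Defa2: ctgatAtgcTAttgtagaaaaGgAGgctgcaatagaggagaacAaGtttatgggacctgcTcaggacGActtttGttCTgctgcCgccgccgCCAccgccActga
Within this stretch Defa30 differed from Defa24 by 1 base, Defa23 by 6, Defa17 by 7 and Defa5 by 26, and Defa2 differed from Defa22 by 19 once aligned. Over the whole coding sequence Defa24 and Defa30 were 98.6% identical, Defa17 and Defa23 97.9%, and Defa2 and Defa22 90.3%. AY761184 stood apart, with 63.0% to 65.0% identity with the other 7 genes. Lyz1 and Lyz2 were 95.1% identical.

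Words of 100 bases were taken from each transcript and looked for in all other genes of the annotation. Every such word of Defa24, Ang4 and AY761184 was found in that gene alone, as were 99.7% of those of Defa30 and 97.9% of those of Lyz1. For Defa22 the share was 59.7%. It was 11.9% for Defa5, 10.9% for Defa23, 9.4% for Defa17 and 0.0% for Defa2. Defa17 shared 90.6% of its words with Defa3, Defa23 shared 89.1% with Defa31, Defa2 shared 74.9% with Defa33, and Defa5 shared 74.7% with Defa34. The read length and the counting tool are not given in the sources used here. With words of 50 bases the share was 71.9% for Defa24, 47.6% for Defa30, 66.5% for AY761184 and 25.1% for Defa22. It was 95.3% for Ang4 and 83.9% for Lyz1. The values of Defa2, Defa5, Defa17 and Defa23 are thus uncertain as values of single genes. Those of Ang4 and Lyz1 are less so, while for Defa24, Defa30, AY761184 and Defa22 this depends on the read length.

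The promoters of 6 of the 10 genes were in the RefSeq promoter table (GRCm38.p6), from 250 bases before to 50 after the start of the gene. Those of Defa22 and Defa23 are given here as examples, from position -160 to position -26. The deposited table uses another build (GRCm39), so these coordinates belong to GRCm38.p6 only. Capitals mark 3 words searched on both strands. The first is TATAAA, the letters of a TATA box. The other two, printed below as their reverse complements, read CTTTGA and, in the place further upstream, the related word CTTTGT. They are spellings of the core motif of the TCF/LEF factors of Wnt signalling.
Defa22 (chr8:21162117-21162251, plus strand): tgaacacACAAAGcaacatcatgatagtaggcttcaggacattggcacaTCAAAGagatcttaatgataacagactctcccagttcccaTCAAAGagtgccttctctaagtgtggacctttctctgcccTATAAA
Defa23 (chr8:21054880-21055014, plus strand): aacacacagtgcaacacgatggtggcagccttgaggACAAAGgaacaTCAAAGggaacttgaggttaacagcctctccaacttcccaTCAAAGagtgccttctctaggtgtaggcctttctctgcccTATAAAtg
TATAAA began at position -31 in Defa2 and Defa22, at -33 in Defa23 and at -61 in Defa30. Lyz1 and Ang4 held CTTTGT on one strand or the other and neither of the other words. On either strand, 13.6% of 32851 promoters of 300 bases held TATAAA, 16.0% held CTTTGA and 18.7% held CTTTGT. These matches describe letters and not binding, and their relation to expression was not tested. On the minus strand CTTTGT lay at -153 in Defa22 and at -124 in Defa23. From COL_Control to COL_cWRNE the log2 difference was 1.12 for Defa22, without overlap, and 0.15 for Defa23, with overlap. In the fit of all 18 libraries neither passed an adjusted p of 0.05 (0.223 and 0.886, edgeR's quasi-likelihood test). With only these groups fitted, Defa22 passed (adjusted p = 0.00333) and Defa23 did not. The difference between these genes was not tested, nor was any relation to their promoters. Over the 18 libraries Defa23 was closer to Defa30 (r = 0.997), whose promoter is not shown, than to Defa22 (r = 0.973).

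TPM, the deposited values that allow for transcript length, rank the genes against each other. Defa24 had the highest mean in each of the 6 groups and Defa17 the next. In MG_Control Defa24 stood at 25400 ± 2427 TPM (SD, n = 3), Defa17 at 7339 ± 765, Defa30 at 4608 ± 256.5 and Lyz1 at 3941 ± 719. Defa23 followed at 2742 ± 79.3 TPM. AY761184 and Defa2 were level at 986 ± 23.0 and 983 ± 138 TPM. Defa22, Defa5 and Ang4, at 416 ± 85.9, 407.5 ± 24.9 and 406 ± 42.3 TPM, differed by less than their SDs. Together the 10 genes made up 4.48% to 5.06% of all TPM in MG_Control, but only 0.894% to 1.07% of all counts, because their transcripts are short. They reached 11.3% to 12.0% of all TPM in MG_5FU and stayed between 1.43% and 2.05% in the 2 groups of the ENRW collagen cultures.

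**Figure D1:**
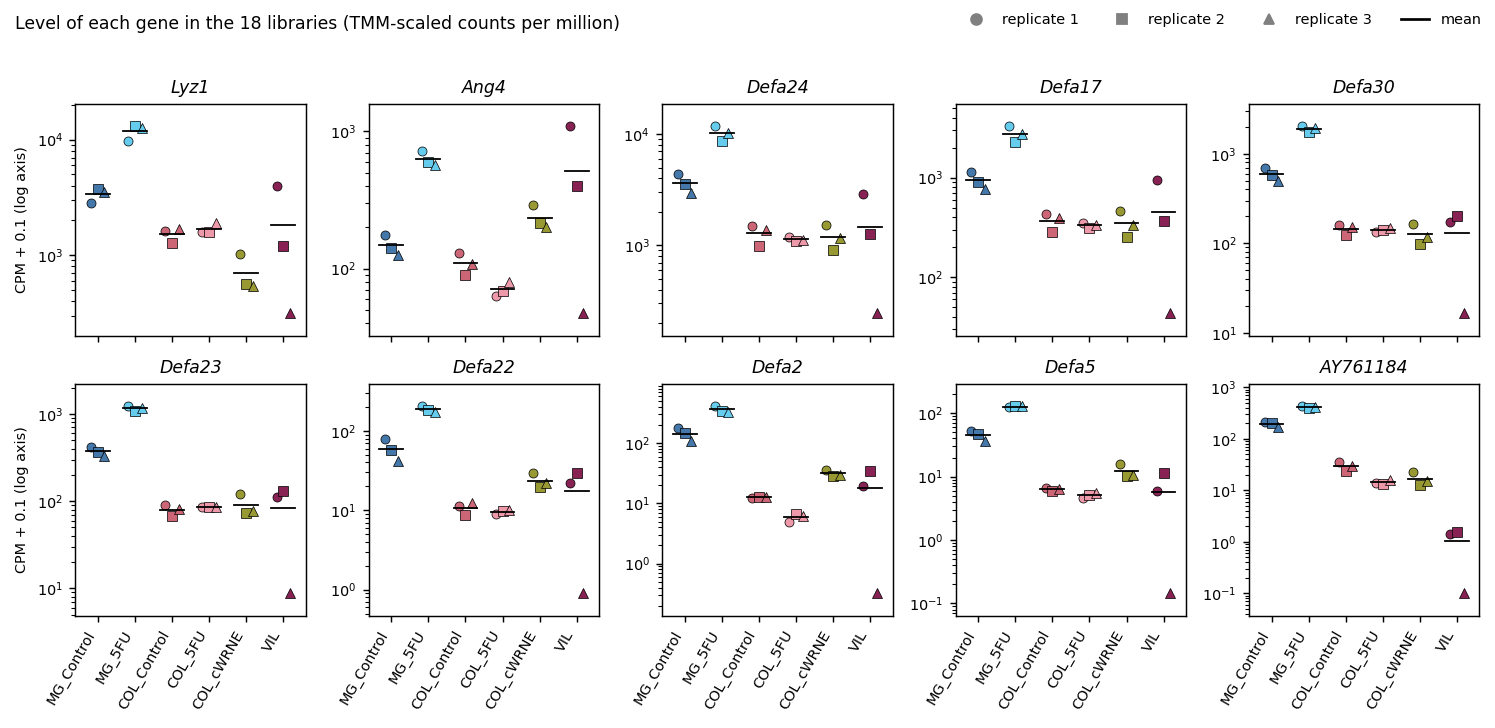
Level of each of the 10 genes in TMM-scaled CPM plus 0.1, on a log axis, in the 18 libraries; the marker shape gives the replicate number and the bar is the group mean. All 10 genes are highest in MG_5FU among the 5 crypt-derived groups, and VIL replicate 3 is the lowest of the VIL libraries for every gene.

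5-FU in Matrigel raised all 10 genes. The lysozyme and angiogenin genes are described first, in CPM scaled by the TMM method, and the defensins after them. Lyz1 stood at 2824, 3734 and 3514 CPM in MG_Control and at 9669, 13090 and 12510 CPM in MG_5FU. The groups did not overlap, and Lyz1 rose 3.61-fold (log2 fold change 1.85 ± 0.15, SE; adjusted p = 1.25e-06, edgeR's quasi-likelihood test). Ang4 rose from 175.7, 141.8 and 125.8 CPM to 722.1, 601.2 and 570.3 CPM, a log2 fold change of 2.14 ± 0.16 (adjusted p = 4.85e-07), with every treated library above every control. Of the 16611 genes tested, 30.9% were called at an adjusted p under 0.05, 19.2% higher and 11.7% lower, and all 10 antimicrobial genes were called higher.

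Defa24, the most abundant of the defensins, had 4350, 3540 and 2936 CPM without and 11780, 8581 and 10110 CPM with 5-FU. Defa17 had 1149, 901.9 and 760.9 CPM without and 3290, 2281 and 2736 CPM with it. Both rose about as much, by 1.54 ± 0.16 and 1.61 ± 0.17 on the log2 scale, with no overlap between the groups. Defa30 went from 688.8, 583.6 and 499.1 CPM to 2036, 1734 and 1941 CPM, and Defa23 from 418.9, 365.4 and 333.7 CPM to 1227, 1086 and 1178 CPM. Their log2 fold changes were 1.74 ± 0.12 and 1.69 ± 0.11 (adjusted p = 3.9e-07 and 2e-07), and each treated library exceeded each control.

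The less abundant defensins followed. Defa22 had 78.35, 57.79 and 42.02 CPM in MG_Control and 204.9, 183 and 174.6 CPM in MG_5FU, and rose by 1.71 ± 0.18 on the log2 scale. Defa2 went from 176, 148.3 and 107.6 CPM to 411, 347 and 334 CPM (1.39 ± 0.15), and Defa5 from 52.24, 46.91 and 36.98 CPM to 123.2, 128.1 and 129.2 CPM (1.53 ± 0.12). AY761184 had 208, 203.3 and 171.6 CPM without and 431.8, 398.9 and 410.8 CPM with 5-FU. Its rise, 1.14 ± 0.13, was the smallest of the 10 fitted values, with a 95% interval from 0.86 to 1.42 that lies below that of Ang4 (1.80 to 2.48). The difference between genes was not tested. In a single fit of all 18 libraries, which includes VIL, only 6 of the 10 genes passed, and Defa2, Defa5, Defa17 and Defa22 did not (adjusted p = 0.165, 0.0858, 0.0774 and 0.056). Of all genes, 22.8% were called there.

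5-FU in collagen raised none of the 10 genes and lowered 3. Defa2 had 12.17, 12.53 and 12.72 CPM in COL_Control and 4.743, 6.602 and 5.968 CPM in COL_5FU. It fell by 1.16 ± 0.17 on the log2 scale (2.23-fold lower; adjusted p = 0.000159, edgeR's quasi-likelihood test). AY761184 went from 34.9, 23.29 and 29.97 CPM to 13.86, 13.24 and 15.58 CPM, a log2 fold change of -1.09 ± 0.13 (adjusted p = 4.56e-05). Ang4 fell from 130.4, 89.48 and 107.7 CPM to 62.73, 69.13 and 79.86 CPM, 1.60-fold (adjusted p = 0.00386). For these 3 genes every treated library lay below every control. Of all genes tested 35.3% were called, 16.7% lower and 18.6% higher, which sets the scale for 3 of 10. None of the 10 was higher in DESeq2 either, nor at an unadjusted threshold of 0.05 in edgeR.

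The other 7 genes did not pass. Lyz1 had 1611, 1280 and 1676 CPM in COL_Control and 1573, 1583 and 1895 CPM in COL_5FU, and its log2 fold change of 0.10 had a 95% interval from -0.22 to 0.42. A rise of the size seen in Matrigel lies outside that interval. Defa24 had 1505, 990 and 1382 CPM without and 1179, 1090 and 1122 CPM with 5-FU, with an interval from -0.58 to 0.10. The intervals of Defa17, Defa22, Defa23 and Defa30 also included 0, and their groups overlapped. Defa5 was on the border: its 3 treated libraries (4.484, 5.068 and 5.502 CPM) lay below the 3 controls (6.512, 5.831 and 6.27 CPM), yet its adjusted p was 0.0561. It passed under 4 of the 16 alternative settings, without COL_5FU replicate 3 among them. Defa2 and Ang4 lost their calls when all 18 libraries were fitted together (adjusted p = 0.258 and 0.462, the highest of their 16 alternatives).

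The response to 5-FU differed between the Matrigel and the ENRW collagen cultures for all 10 genes. It is called the difference between the gels below, although the medium differed too. The difference was tested as an interaction, the log2 change in collagen minus that in Matrigel, and all 10 values were below 0 at an adjusted p under 0.05, against 6.3% of all genes tested. In either direction 8.19% of genes were called, and 1.88% had a value above 0. Ang4 had the largest value, -2.82 ± 0.22 (adjusted p = 3.24e-05, edgeR's quasi-likelihood test), then Defa2 with -2.55 ± 0.23 and AY761184 with -2.23 ± 0.19. These are the genes that fell in collagen. The other 7 genes lay close together, between -1.92 for Defa22 and -1.64 for Defa23, and Lyz1 was among them at -1.75 ± 0.21. Fitted with all 18 libraries, AY761184 alone passed, while the values of the others stayed between -2.73 and -1.55. That fit called 2.94% of all genes and takes its spread from the VIL libraries too.

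**Figure D2:**
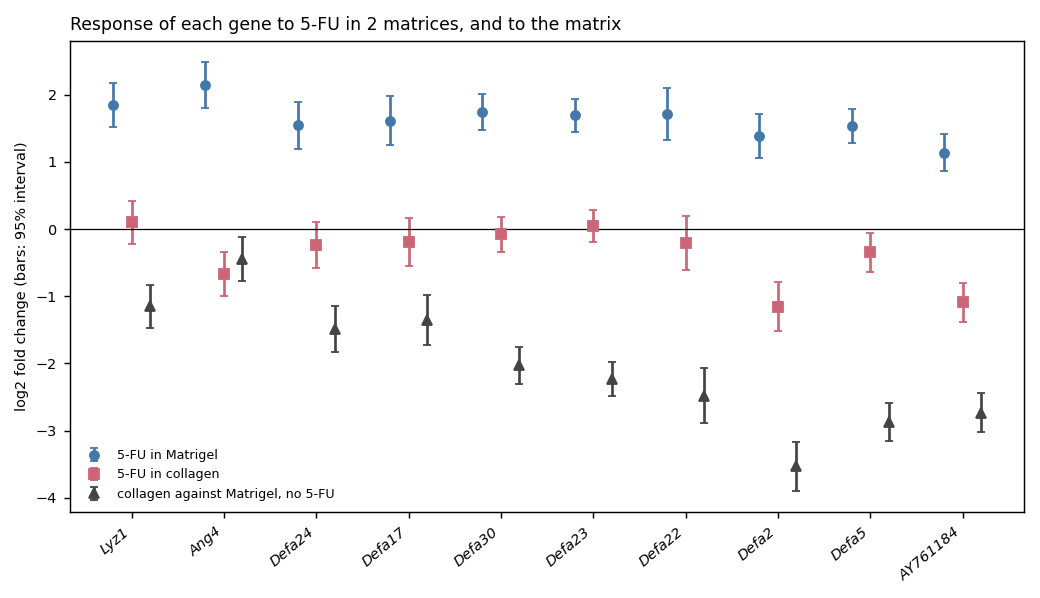
Log2 fold change of each gene with its 95% interval for 5-FU in Matrigel (blue circles), 5-FU in collagen (red squares) and collagen against Matrigel without 5-FU (grey triangles). The blue points lie between 1.14 and 2.14, the red points lie at or below 0.10, and the grey points run from -0.44 for Ang4 to -3.53 for Defa2.

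Without 5-FU, the genes were lower in collagen with ENRW than in Matrigel with ENR, and by very different amounts. All 10 were called lower, against 15.4% of all genes tested (31.2% in either direction, 15.8% higher). Defa2 fell 11.6-fold, from 176, 148.3 and 107.6 CPM to 12.17, 12.53 and 12.72 CPM (log2 fold change -3.53 ± 0.17; adjusted p = 3.58e-08, edgeR's quasi-likelihood test). Defa5 fell 7.34-fold, to 6.512, 5.831 and 6.27 CPM, AY761184 6.65-fold, to 34.9, 23.29 and 29.97 CPM, and Defa22 5.57-fold, to 11.22, 8.68 and 12.14 CPM. For these 4 genes each collagen library was below each Matrigel library.

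Smaller falls were seen for the abundant defensins and for lysozyme. Defa23 fell 4.70-fold to 91.3, 66.86 and 81.04 CPM and Defa30 4.09-fold to 161.9, 122.8 and 150.6 CPM. Defa24 fell 2.80-fold to 1505, 990 and 1382 CPM, and Defa17 2.56-fold to 426.2, 284.2 and 394.4 CPM. Lyz1 fell 2.22-fold, to 1611, 1280 and 1676 CPM, a log2 fold change of -1.15 with a 95% interval from -1.47 to -0.83. The interval of Defa2 ran from -3.89 to -3.17 and did not overlap that of any other gene, of which the nearest was that of Defa5 (-3.15 to -2.60).

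The calls of Ang4, Lyz1 and Defa17 depended on the fit. The collagen libraries of Ang4, at 130.4, 89.48 and 107.7 CPM, overlapped the Matrigel libraries, at 175.7, 141.8 and 125.8 CPM, and its log2 fold change of -0.44 passed narrowly (adjusted p = 0.0407). That call was lost with library totals in place of TMM (adjusted p = 0.0976), in limma on TPM (0.252), with a filter at 10 CPM (0.0571), with only the compared groups (0.0556), and when COL_Control replicate 2 or 3 or MG_Control replicate 1 or 2 was left out (0.0773 to 0.173). Over all 16 alternatives its adjusted p ran from 0.00916 to 0.66. In the fit of all 18 libraries 7 of the 10 genes were called, and Lyz1 (adjusted p = 0.144) and Defa17 (0.124) lost their calls there with Ang4. That fit called 21.6% of all genes. For the bulk libraries, fewer Paneth cells and less of each RNA per cell cannot be told apart.

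With 5-FU in both gels, the gap widened. All 10 genes were lower in COL_5FU than in MG_5FU, against 18.6% of all genes tested (35.5% in either direction, 17% higher), and no groups overlapped. Defa2 differed most, with a log2 fold change of -6.08 ± 0.19 (67.5-fold; adjusted p = 2.89e-10, edgeR's quasi-likelihood test), and Lyz1 least, with -2.90 ± 0.16 (7.49-fold). AY761184 was 31.2-fold lower, Defa5 27.0-fold, Defa22 21.2-fold, Defa23 14.7-fold and Defa30 14.4-fold. Ang4, Defa24 and Defa17 were 9.58-fold, 9.64-fold and 8.94-fold lower. The treated groups here are those of the interaction, so these values share their libraries with it.

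The make-up of the defensins differed between the Matrigel and the ENRW collagen cultures, in which gel and medium both differ, while their order stayed much the same. Of the summed TPM of the 8 genes, Defa24 took 58.7% to 59.8% in MG_Control and 63.7% to 65.3% in COL_Control. Defa17 took 16.8% to 17.5% and 20.2% to 20.6%. Both shares were higher in every collagen library than in every Matrigel control. Defa30 went the other way, from 10.4% to 11.1% in MG_Control to 7.71% to 8.69% in COL_Control, although its coding sequence is nearly that of Defa24. Defa2 made up 2.09% to 2.41% in MG_Control, 1.85% to 2.23% in MG_5FU, 0.513% to 0.787% in COL_Control and 0.253% to 0.373% in COL_5FU. With cWRNE its share was 1.45% to 1.92%, above every ENRW collagen library and below every MG_Control library, and it overlapped that of MG_5FU. Exact permutation of 3 against 3 libraries cannot give a two-sided p below 0.1, so no test of these shares was made.

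Ang4 and Lyz1 did not keep a fixed ratio. The TPM of Ang4 divided by that of Lyz1 was 0.146, 0.0905 and 0.0854 in MG_Control and 0.0954, 0.105 and 0.1 in COL_5FU. It was 0.678, 0.92 and 0.883 in COL_cWRNE, above all 12 libraries of the 5-FU experiment. In VIL it was 0.667, 0.801 and 0.355.

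**Figure D3:**
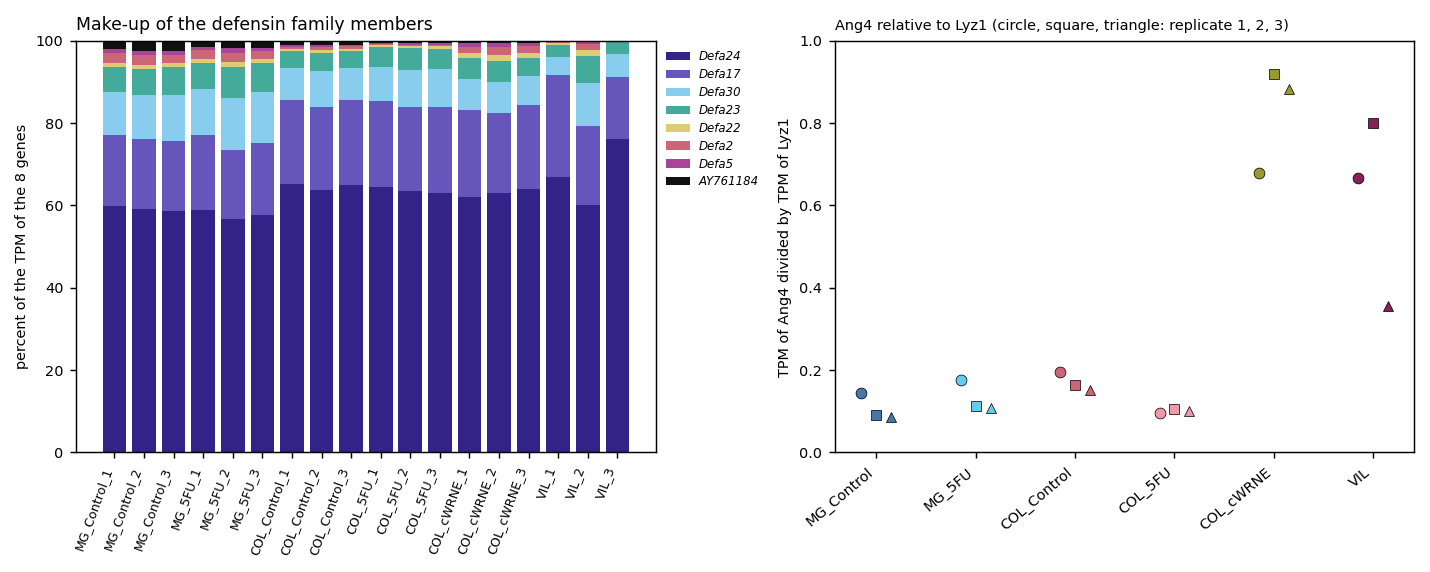
Left, the percent of the summed TPM of the 8 defensin family genes that each gene took in each library; right, the TPM of Ang4 divided by that of Lyz1, with the marker shape giving the replicate number. Defa24 is the largest share in every library, from 56.7% to 76.2%, and the ratio of Ang4 to Lyz1 is above 0.3 in the COL_cWRNE and VIL libraries only.

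The medium was changed within collagen between COL_Control (ENRW) and COL_cWRNE. No gene of the 10 was called in the fit of all 18 libraries, where 18% of 17708 genes were, 13.1% higher and 4.85% lower. DESeq2 also called 0 of the 10, and 22.2% of all genes. At an unadjusted threshold of 0.05, edgeR's quasi-likelihood test called 1, AY761184. Neither that count nor the separation of single genes described next was counted over all genes, so neither has a background here. Ang4 had 130.4, 89.48 and 107.7 CPM in ENRW and 289.4, 215.7 and 200.1 CPM in cWRNE, a log2 difference of 1.09 ± 0.59. Defa2 had 12.17, 12.53 and 12.72 CPM in ENRW and 36.4, 28.24 and 29.51 CPM in cWRNE (1.31 ± 0.67). Defa5 and Defa22 were also higher in each cWRNE library. Lyz1 and AY761184 were lower in each cWRNE library: Lyz1 had 1611, 1280 and 1676 CPM in ENRW and 1017, 560.9 and 539.2 CPM in cWRNE. When only the 6 libraries of these groups were fitted, these 6 genes were called, 4 higher and 2 lower, and 26.8% of all genes were. The adjusted p was 0.0014 for Ang4, 0.000326 for Defa2, 0.0151 for Defa5 and 0.00333 for Defa22, and 0.00422 for Lyz1 and 0.0189 for AY761184. Defa17, Defa23, Defa24 and Defa30 overlapped between the media and were called in neither fit.

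Against MG_Control, COL_cWRNE had lower levels of 4 genes. In the fit of MG_Control, COL_cWRNE and VIL, AY761184 fell 12.3-fold, to 22.22, 12.42 and 15.18 CPM (adjusted p = 0.000965, edgeR's quasi-likelihood test). Lyz1 fell 4.98-fold, Defa30 4.87-fold and Defa23 4.35-fold (adjusted p = 0.033, 0.0281 and 0.0438). The background was 33.3% of 16699 genes called, 13.1% lower and 20.1% higher. Leaving out any 1 of the 6 libraries, COL_cWRNE or MG_Control, left AY761184 as the only call of the 10. Those fits called 20.7% to 24.8% of all genes. With only these 2 groups fitted, all 10 genes were called, 9 lower and Ang4 higher (log2 fold change 0.59; adjusted p = 0.0114). That fit called 47.2% of 15644 genes. In all 3 cWRNE libraries Ang4 was above each MG_Control library, and the other 9 genes were below.

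The villus cultures showed the antimicrobial genes at uneven levels. Lyz1 stood at 3993, 1193 and 314.5 CPM in VIL and Ang4 at 1090, 400 and 47.29 CPM. For Defa24 the values were 2879, 1266 and 245.2 CPM, and for Defa17 955.3, 363.4 and 43.33 CPM. These 4 genes were highest in replicate 1 and lowest in replicate 3, with Lyz1 12.7 times and Ang4 23.0 times higher in the former. Defa23 (111.8, 131 and 8.711 CPM), Defa30 (173.9, 201.7 and 16.53 CPM), Defa22 (21.66, 29.69 and 0.8 CPM) and Defa2 (19.51, 33.91 and 0.2222 CPM) were highest in replicate 2 and lowest in replicate 3. Defa5 had 5.824, 11.13 and 0.04445 CPM.

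AY761184 was nearly absent from all 3 villus libraries. It had 1.29, 1.469 and 0 CPM there, that is 33.1, 46.6 and 0 estimated counts, against 22.22, 12.42 and 15.18 CPM in COL_cWRNE. It was the single gene of the 10 called between VIL and COL_cWRNE, 17.1-fold lower (log2 fold change -4.09 ± 0.61; adjusted p = 0.00583, edgeR's quasi-likelihood test), where 7.64% of all genes were called, 1.96% lower and 5.68% higher. With only the 6 libraries of these groups, its adjusted p was 0.0622 at a fold change of -4.11 on the log2 scale. In VIL replicate 1, Defa2 and Defa5 were below all 3 cWRNE libraries as AY761184 was. Lyz1, Ang4, Defa17, Defa24 and, narrowly, Defa30 were above all 3 there. In replicate 2 AY761184 alone of the 10 was below all 3, and in replicate 3 all 10 were. Of the other defensins, Defa29 was also below the cWRNE libraries in every villus library (1.485, 1.156 and 0.1333 CPM against 3.034, 3.001 and 2.309 CPM). Defa33 and Defa34 were as well, and all 3 were named after their values were seen. None of the 3 was called (adjusted p = 0.138, 0.468 and 0.444, edgeR's quasi-likelihood test), nor was any of the 15 other Defa rows tested. Such separation was not counted over all genes.

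The calls of other genes changed with the villus libraries used. Without VIL replicate 3, Lyz1 and Ang4 were called higher in VIL than in COL_cWRNE (log2 fold change 1.89 and 1.68; adjusted p = 0.0288 and 0.0188). Of all genes, 9.01% were called there in either direction. With replicate 1 as the only villus library the log2 differences of Defa17 and Defa24 were 1.48 and 1.30. That fit takes its spread from COL_cWRNE and MG_Control alone and assumes that the lone villus library varies like them, so its calls are not read here. With all 3, Lyz1 and Ang4 gave 1.39 ± 0.69 and 1.14 ± 0.76 and did not pass (adjusted p = 0.278 and 0.429). Against MG_Control, 5 genes were lower in VIL, where 46.6% of all genes were called, 19.7% lower and 27% higher: AY761184, Defa2, Defa5, Defa23 and Defa30. AY761184 differed by -7.71 ± 0.68 on the log2 scale (adjusted p = 5.75e-05), and the other 4 by -3.06 to -2.21. The count went from 1 gene without MG_Control replicate 1 or 2, or with only these 2 groups, to 8 without VIL replicate 1. Of all genes, 35.6%, 32.8%, 39.8% and 48.8% were called in these fits, in that order.

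Lyz2, the myeloid lysozyme gene, marked the villus libraries. It had 838.1, 2334 and 3340 CPM in VIL and at most 15.74 CPM in each of the other 15 libraries. Its order over the villus libraries was the reverse of that of Lyz1. Adgre1, the macrophage marker F4/80, was at 0 in all 15 other libraries and at 8.834, 36.04 and 28.53 CPM in VIL. The fibroblast gene Dcn had 3.87, 103.5 and 65.65 CPM in VIL and at most 0.03705 CPM elsewhere. Of the 7 macrophage and immune markers 6 were called higher in VIL than in COL_cWRNE, as were all 6 mesenchymal markers, against 5.68% of all genes. The part of these cells in the villus values of the 10 genes was not tested. At 95.1% coding identity, reads of Lyz2 assigned to Lyz1 could not be seen in these files.

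**Figure D4:**
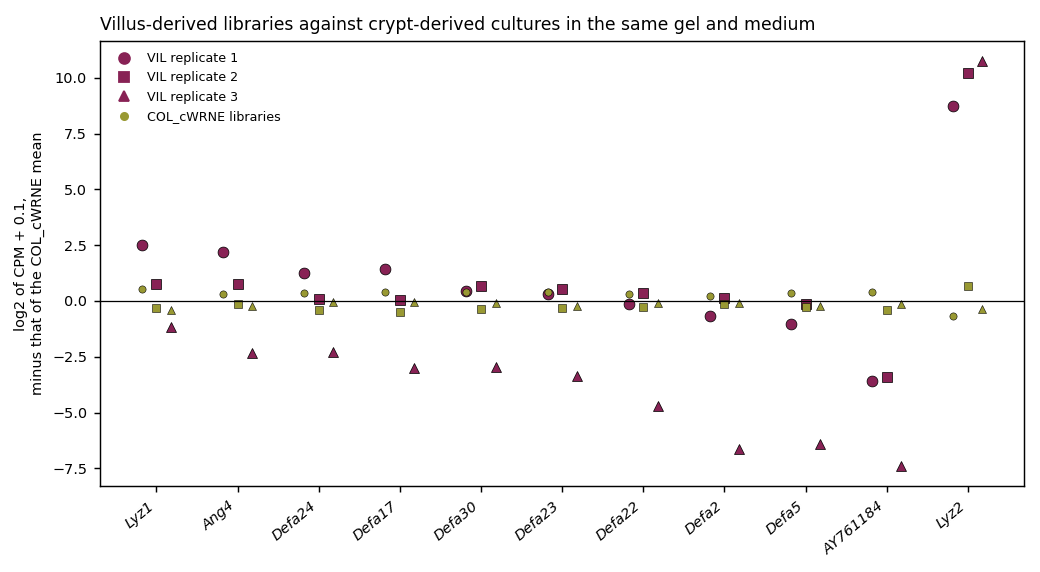
Log2 of CPM plus 0.1 of each VIL library (large purple markers) and each COL_cWRNE library (small olive markers) minus that of the COL_cWRNE mean, for the 10 genes and Lyz2; the marker shape gives the replicate number. VIL replicate 3 lies below the COL_cWRNE mean for all 10 genes, all 3 VIL libraries lie below it for AY761184, and all 3 lie far above it for Lyz2.

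The rest of the defensin family was low or absent in part. The table holds 32 other rows named Defa, of which 17 are pseudogenes, and 11 were at 0 in every library. The 8 genes held 75.5% to 86.9% of the counts of the whole family in each library. The other rows with the highest means were Defa3, Defa36 and Defa31. Of 18 other rows tested in the 5-FU experiment, 12 rose with 5-FU in Matrigel, where 19.2% of all genes rose. In collagen 5 of the 18 fell with 5-FU, where 16.7% of all genes fell, and 13 were not called. In collagen without 5-FU 16 of 18 were lower than in Matrigel, against 15.4% of all genes, and with 5-FU all 18 were, against 18.6%. Defa3, which shares most of its sequence words with Defa17, rose by 1.61 ± 0.18 in Matrigel, changed by -0.25 ± 0.18 in collagen (adjusted p = 0.306), and was 1.31 lower on the log2 scale in untreated collagen. Ang, a paralog of Ang4 of 84.9% coding identity, rose by 0.56 ± 0.17 in Matrigel and fell by 1.13 ± 0.18 in collagen with 5-FU. The median log2 fold change of the 18 rows was 1.37 in Matrigel with 5-FU, beside 0.06 over all genes tested, and -0.70 in collagen with 5-FU, beside -0.03.

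Of 14 other genes of Paneth granules and of the crypt niche, 7 rose with 5-FU in Matrigel and 1 fell, where 19.2% of all genes rose and 11.7% fell. Their median log2 fold change was 1.12, beside 0.06 over all genes. The 14 include Lyz2, the myeloid lysozyme gene, which rose by 1.82 ± 0.31 in Matrigel and fell by 0.94 ± 0.32 in collagen. Lyz2 had at most 15.74 CPM in the libraries of the 5-FU experiment. Pla2g2a, a secreted phospholipase of Paneth granules, rose by 2.46 ± 0.20 on the log2 scale, Mmp7 by 1.92 ± 0.18, Itln1, a lectin, by 1.89 ± 0.17, and Wnt3, the Wnt ligand of Paneth cells, by 1.70 ± 0.16. Dll1, a Notch ligand, fell by 0.67 ± 0.16. In collagen 1 of the 14 rose with 5-FU, Pla2g2a (1.12 ± 0.20), and 8 fell, Wnt3 and Dll1 among them, where 18.6% of all genes rose and 16.7% fell. Mmp7, whose product matures the defensins, changed by -0.21 ± 0.18 there (adjusted p = 0.393) and by 0.28 ± 0.18 between untreated collagen and Matrigel (adjusted p = 0.263). In CPM it had 143.8, 146.1 and 123 in MG_Control and 234, 132.4 and 138.7 in COL_Control, which overlap, while Defa2 differed 11.6-fold there. In COL_cWRNE Mmp7 had 829.3, 669.5 and 689.2 CPM, above all libraries of the 5-FU experiment. In untreated collagen 5 of the 14 genes were lower than in Matrigel, against 15.4% of all genes, with Dll1 (-1.75 ± 0.17), Habp2 (-1.50 ± 0.19), Dll4 (-1.22 ± 0.17) and Itln1 (-1.20 ± 0.16) among them.

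Of 13 genes that specify Paneth and other secretory cells, or that act in granule packing, 2 rose and 1 fell with 5-FU in Matrigel, shares near the 19.2% and 11.7% of all genes. The median of the 13 was 0.15 on the log2 scale, beside 0.06 over all genes. Those that rose were Sox9, a transcription factor needed for Paneth cells, at 0.83 ± 0.11 and Bhlha15, a factor of secretory cells also called Mist1, at 0.75 ± 0.22. Xbp1, a factor of the unfolded protein response, fell by 0.26 ± 0.08. Atoh1, the factor that sets the secretory fate, changed by 0.11 ± 0.14 (adjusted p = 0.604). In collagen 8 of the 13 fell with 5-FU, where 16.7% of all genes fell, Atoh1 by 0.40 ± 0.14 and Xbp1 by 0.63 ± 0.08, while Sox9 rose by 1.19 ± 0.11. In untreated collagen 6 of the 13 were lower than in Matrigel, against 15.4% of all genes, with Bhlha15 at -1.33 ± 0.23, Ern2 at -1.05 ± 0.16, Atoh1 at -0.97 ± 0.14 and Xbp1 at -0.63 ± 0.08, and Sox9 at -0.03 ± 0.11 was not called.

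With 5-FU in Matrigel, most markers of the other differentiated epithelial cell types rose and most stem cell markers fell, while the counts in collagen were mixed. In Matrigel, where 19.2% of all genes rose and 11.7% fell, all 5 enteroendocrine markers rose and their summed level went from 430.3 to 554.3 CPM up to 1671 to 1813 CPM. Of 7 goblet markers 6 rose (2454 to 2836 CPM against 4348 to 6088 CPM), and of 7 enterocyte markers 5 rose (2418 to 2583 CPM against 6696 to 8269 CPM). Of the 5 tuft cell markers 4 were tested and 3 rose. Of the 5 stem cell markers 3 fell, and the sum of the 5 went from 5037 to 6583 CPM down to 1585 to 2414 CPM. Olfm4 made up most of the sum in MG_Control, with 3201, 3909 and 4263 CPM there and 446.5, 715.1 and 522.4 CPM in MG_5FU. The levels of Ascl2 and Slc12a2 overlapped between these groups. No enteroendocrine, goblet, enterocyte or stem cell marker was at 0 throughout any of the 6 groups, while Gnat3, the tuft marker not tested, was at 0 in every COL_5FU, COL_cWRNE and VIL library. With 5-FU in collagen 5 of the 7 goblet and 5 of the 7 enterocyte markers fell, and enterocyte sums went from 224.7 to 770.5 CPM down to 115.3 to 197.5 CPM, where 16.7% of all genes fell and 18.6% rose. Of the 5 enteroendocrine markers 1 rose there, none fell, and all 5 log2 values lay between 0.26 and 0.73. Of the stem cell markers 3 fell and 1 rose, and of 4 tuft markers 2 fell and 1 rose. Untreated collagen cultures had lower levels than Matrigel cultures of 6 of 7 goblet, 6 of 7 enterocyte, all 5 enteroendocrine, 3 of 4 tuft and 2 of 5 stem cell markers, against 15.4% of all genes, and a higher level of 1 stem cell marker. The part of cell composition in the values of the 10 genes was not tested.

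The 10 genes varied together over the libraries. On log2(CPM + 1), the 28 pairs of defensin genes had Pearson correlations from 0.806 to 0.997 over the 18 libraries, and from 0.833 to 0.999 once each group mean was removed. The 17 pairs with Lyz1 or Ang4 ran from 0.285 to 0.939, and from 0.734 to 0.985 within groups. These are descriptions: the libraries share treatments, the defensins may share reads, and the villus libraries carry most of the spread within groups. Outside the family, the gene most like the mean of the 10 over the 18 libraries, of 9531 with a mean of at least 10 CPM, was Lap3 (r = 0.967), then Habp2 (0.957), Guca2b (0.956), Tm4sf5 (0.946), Marc2 (0.945), Chga (0.943), Rgn (0.942) and Reep6 (0.94). Chga is a granule protein of enteroendocrine cells and had 86.8 ± 19.4 CPM in MG_Control, 270.1 ± 18.4 in MG_5FU and 20.1 ± 5.0 in COL_Control. Guca2b, which encodes uroguanylin, had 115 ± 19.6 CPM, 436 ± 76.4 and 20.4 ± 4.71 in those groups.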

How the data were processed

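PolyA RNA was converted to cDNA with a SMART-Seq kit and tagmented with Nextera XT, per the labels' protocols. The submitters' processing notes name bcl2fastq 2.20, DRAGEN and the build GRCm39; the counting tool and annotation are not given in the sources used here. The authors deposited estimated counts and TPM per gene, per the file headers. Of the nonzero estimated counts 67.8% were whole to within 1e-09, and symbols matched 52081 of 55414 row identifiers. Library totals of 22.3 M to 34.5 M limit the precision for the rarest genes.

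Deposited estimated counts were rounded and fitted with edgeR 4.0.16 (R 4.3.3), with TMM scaling, filterByExpr (minimum count 10, total 15), quasi-likelihood F-tests and Benjamini-Hochberg adjustment over all genes tested; genes were called at an adjusted p under 0.05. The 12 libraries of the 5-FU experiment were fitted together, the 9 of MG_Control, COL_cWRNE and VIL together, and all 18 for cWRNE against ENRW. P-values measure the spread between these libraries. The SE is the absolute log2 fold change over the square root of F. CPM were scaled by TMM over the 18 libraries. Each fit was checked with simulated counts; with 100 genes changed 4-fold, 92% were recovered for 5-FU in Matrigel and 68.7% of 99 for VIL against COL_cWRNE. With 100 changed 2-fold, the shares were 61% and 26%, and they were 45% for cWRNE against ENRW and 37% for the difference between the gels.

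The genes and lists were chosen with earlier results of these data known. Named were all 10 genes; from the Paneth lists those with the smallest adjusted p for 5-FU in Matrigel and for untreated collagen, plus Mmp7, Lyz2, Sox9 and Atoh1; the most abundant other family genes; and the 8 genes most alike in pattern. Other cell type markers were counted by list. Same-numbered libraries deviated together (every r above 0.1, the lowest 0.132, 0.153 and 0.207) for 5-FU in Matrigel, 5-FU in collagen and cWRNE against ENRW, so there the numbers may pair the libraries. Alternatives were DESeq2 1.42.0, RLE size factors, library totals, no filter, at least 10 CPM in 3 libraries, a log2 fold change of at least 1, other sets of libraries, a replicate block, limma 3.58.1 on log2(TPM + 1) for genes of at least 1 TPM in 3 libraries, and leaving out each library. Replicates differed by more than counting noise in all 18 pairs (chi-square per degree of freedom at least 11.3). Sequence comparisons used Biopython 1.88.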

Additional observations from a re-analysis of the deposited data

Results flagged for a closer look

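All 10 genes are listed because their response to 5-FU differed between the Matrigel and the ENRW collagen cultures by a test of the difference itself. The log2 change in collagen minus that in Matrigel was -2.82 for Ang4, -2.55 for Defa2 and -2.23 for AY761184, the 3 genes that also fell in collagen. It was -1.92 for Defa22, -1.88 for Defa5, -1.82 for Defa30, -1.81 for Defa17, -1.78 for Defa24, -1.75 for Lyz1 and -1.64 for Defa23. The adjusted p ran from 3.24e-05 to 0.000493 (edgeR's quasi-likelihood test), and 8.19% of 16611 genes were called in either direction.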

How the results depend on the processing

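Of 1500 values of single genes under an alternative, 1395 stayed on their side of the threshold, 61 lost a call, 44 gained one, and 1471 kept their direction; no called value changed sign. With all 18 libraries in one fit, 5-FU called 6 of the 10 genes in Matrigel and 1 in collagen, where 22.8% and 27.2% of all genes were called. That fit called 1 for the difference between the gels, 7 for COL_cWRNE against MG_Control and 8 for VIL against MG_Control. The shares of all genes were 2.94%, 41% and 52.4%. With only the compared groups the counts were 10 for COL_cWRNE against MG_Control, 0 for VIL against COL_cWRNE, 1 for VIL against MG_Control and 6 for cWRNE against ENRW. The shares of all genes were 47.2%, 4.69%, 39.8% and 26.8% in that order. Library totals gave 1 for cWRNE against ENRW, where 20.3% of all genes were called. With VIL replicate 1 as the only villus library, the other groups alone give the spread of the fit. The lone library is assumed to vary like them, so the calls of that fit are not counted here. Leaving out 1 library gave 1 throughout for COL_cWRNE against MG_Control (20.7% to 24.8% of all genes). For VIL against COL_cWRNE it gave 1 to 3 (2% to 11.6% of all genes). Without VIL replicate 3, 2 were higher and 1 lower, where 9.01% of all genes were called. For VIL against MG_Control it gave 1 to 8 (32.8% to 48.8% of all genes). The cause was not tested. A replicate block left 10 genes responding to 5-FU in Matrigel, 3 in collagen, 10 for the difference between the gels and 0 for cWRNE against ENRW. The shares of all genes were 32.7%, 37.3%, 9.61% and 18.3%. For VIL against MG_Control, where r between same-numbered libraries ran from 0.0158 to 0.298, the block gave 6 (Defa24, -1.70, adjusted p = 0.0442, was added). There 44.8% of all genes were called.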
